A study of Mus musculus with 8 samples.

Results

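The secretory cell of the exocrine pancreas passes its enzymes through the membrane of the endoplasmic reticulum (ER), and 45 genes of the machinery that does this were followed here in Bach2KO and Bach2WT pancreas. They were taken by name from the 21434 genes of the deposited table, and all 45 were present. By role they were the Sec61 channel, the TRAP complex, the signal recognition particle with its receptor, signal peptidase, oligosaccharyltransferase, the chaperones with their cochaperones, the protein disulfide isomerases, and a small set of factors induced by ER stress. RNA-seq had been done on pancreatic tissue of 8 untreated mice of 18 weeks, 4 per genotype. The Bach2KO mice were homozygous for C57BL/6N-Bach2tm1b(EUCOMM)Wtsi/leg, a knockout in the whole body made by Cre excision of a parental tm1a allele. The Bach2WT mice were wild type animals of that strain. Colonies were kept separately in Rostock and Lübeck, and the sample labels do not give the site. In each genotype, mice 1 and 2 were females and mice 3 and 4 were males. The question asked of the genes was whether their transcripts differed between the genotypes.

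A protein bound for secretion is recognised by its signal peptide while it is still being made, is brought to the ER by the signal recognition particle, and is threaded through the Sec61 channel. Signal peptidase then removes the signal peptide, oligosaccharyltransferase attaches sugar chains to asparagine residues, and chaperones and disulfide isomerases help the chain to fold. Acinar cells, which fill most of the exocrine pancreas, are known for a very large ER. When unfolded protein builds up there, the unfolded protein response (UPR) raises many of these genes through the factors Atf6 and Xbp1, which act at short elements in their promoters.

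The promoters were searched for those elements. The choice of genes was not independent of them, as it took in factors induced by ER stress. The share of genes with a match therefore describes the genes and is not a test. The promoter sequences (250 bases before to 50 bases after the start site) were those of RefSeq on GRCm38.p6, which held 36 of the 45 genes. The ER stress response element (ERSE) was searched on both strands as CCAAT, 9 free bases and CCACG. It was found in 7 of the 36 genes (19.4%) and in 39 of 32851 promoters of all genes (0.119%). The matches are shown so that they can be compared between the genes that hold one, with the fixed letters in capitals and the 9 free bases between them in lower case, each read 5′ to 3′ on the strand that holds the match.
Hspa5, chr2:34772025-34772043: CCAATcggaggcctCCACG
Hsp90b1, chr10:86705638-86705656: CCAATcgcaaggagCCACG
Hsp90b1, chr10:86705533-86705551: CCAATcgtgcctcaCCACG
Calr, chr8:84847075-84847093: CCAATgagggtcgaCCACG
Canx, chr11:50325800-50325818: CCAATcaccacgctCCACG
Dnajc3, chr14:118937827-118937845: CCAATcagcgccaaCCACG
Pdia6, chr12:17266491-17266509: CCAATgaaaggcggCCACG
Creld2, chr15:88819520-88819538: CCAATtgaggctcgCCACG

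Of these genes, 5 encode chaperones or a cochaperone, 1 a disulfide isomerase and 1 a factor induced by ER stress. Of the other chaperone genes, Dnajb11 and Sdf2l1 did not hold it and Hyou1 could not be searched. Only Hsp90b1 held the element at 2 positions. The matches of Calr and Creld2 and the second match of Hsp90b1 lay on the strand opposite to the gene, and the others on the strand of the gene. The Creld2 match lies in a stretch shared with the promoter of Alg12, a mannosyltransferase gene that runs the other way. A shorter element, ERSE-II, was searched likewise as ATTGG, 1 free base and CCACG, and was found in 2 of the 36 genes (5.56%) against 0.0365% of all promoters. These are the promoters of a J-domain cochaperone and of a factor in ER-associated degradation.
Dnajb11, chr16:22857852-22857862: ATTGGcCCACG
Herpud1, chr8:94386377-94386387: ATTGGgCCACG

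The UPR element TGACGTGG was in 0 of the 36 genes and in 0.676% of all promoters. A match describes letters in these windows only. Without a promoter sequence were Hyou1, Manf, Ostc, Sec11c, Sec61a1, Spcs3, Srp19, Srp68 and Ssr2.

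The 8 libraries held 72299745 to 172029360 counts on genes, of which 79.8% to 82.7% fell on 31 digestive enzyme genes, the defining markers of acinar cells. Of the counts above 0, 58.9% to 62.0% per library were even numbers, so both mates of a read pair may have been counted and the number of fragments may be smaller than these totals. Of the 21434 genes, 12820 had counts enough to be tested, and all 45 genes were among them. Bach2 itself had 3 to 16 counts in the Bach2KO and 4 to 31 in the Bach2WT libraries, so its level could not check the genotype labels. Levels are given as RPKM, which is the count divided by gene length and by library size, so that genes can be compared with each other, with library sizes normalized by TMM. In bulk tissue, fewer cells of a type and less RNA per cell cannot be told apart.

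The genes spanned a wide range of levels. Pdia2, a disulfide isomerase known for its expression in the pancreas, was the highest and stood at rank 26 of all 21434 genes by mean RPKM. P4hb, the general protein disulfide isomerase, followed at rank 62. These were the 2 genes at 100 RPKM or more. Another 15 lay from 10 to 100 RPKM, 25 from 1 to 10 RPKM and 3 under 1 RPKM, and 26 were among the 1000 highest genes. After Pdia2 and P4hb came Ssr4, Herpud1 and Sec61b. The 3 lowest were Sec63, Srp19 and Srp54a. Srp54a had 0 to 60 counts per library, and since it has near-identical copies, its level is uncertain.

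**Figure D1:**
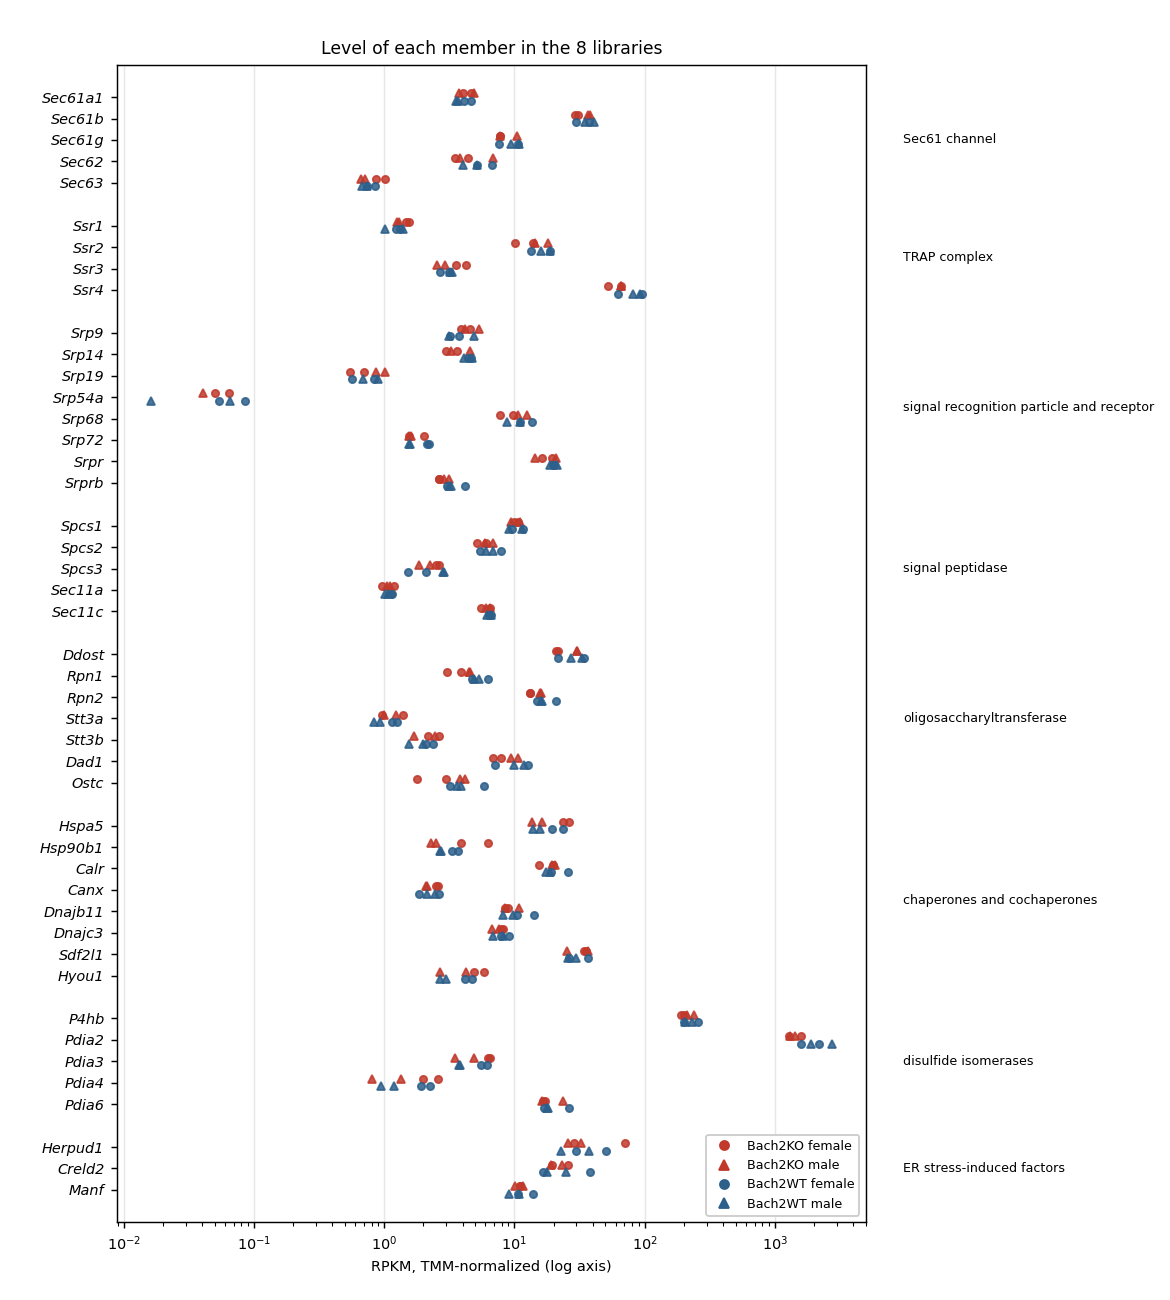
Level of each of the 45 genes in each of the 8 libraries, in RPKM on a log axis, with red for Bach2KO, blue for Bach2WT, circles for females and triangles for males. Pdia2 and P4hb lie above 100 RPKM in every library and Srp54a lies lowest; the value of 0 for Srp54a in Bach2KO mouse 3 cannot be drawn on this axis.

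Within a genotype the genes varied less from mouse to mouse than all genes tested. That comparison was not matched for level, and 26 of the 45 genes were among the 1000 highest. The median coefficient of variation was 16.3% in the Bach2KO and 17.6% in the Bach2WT mice, and over all genes tested it was 31.2% in each genotype. Signal peptidase had the smallest spread of the role groups, at 9.2% and 12.3%. The widest in the Bach2WT mice was that of the factors induced by ER stress, at 33.8%.

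None of the 45 genes passed an adjusted p-value of 0.05 between the genotypes in the edgeR quasi-likelihood test with Benjamini-Hochberg adjustment. Over all genes tested, 0.0078% passed as higher in Bach2KO and 0.0% as lower. DESeq2 passed 0 of the 45 as well, against 0.388% of all genes as higher and 0.156% as lower. At an unadjusted p under 0.05 there were 3 genes lower in Bach2KO (Pdia2, Ssr4 and Rpn1) and 0 higher, where 3.56% of all genes were lower, 3.9% higher and 7.46% either. A log2 fold change below 0 was found for 29 of the 45, against 45.3% of all genes. The median log2 fold change of the 45 was −0.08, that of all genes 0.05, and the range over the 45 was −0.58 to 0.28.

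These differences were small. For 39 genes the log2 fold change was under 0.3 in size, and the median standard error was 0.18. The 95% interval lay within 1 log2 unit of 0 for 44 genes, the exception being Srp54a (−2.4 to 1.38). A single library had a large share in the shift of the median. In Bach2WT mouse 2, a female, the median gene stood 0.25 log2 units above its mean over the 8 libraries, and in the other 7 libraries this value was between −0.09 and 0.05. Without Bach2WT mouse 2 the median log2 fold change was −0.01, and in the males alone it was 0.01. Correcting for gene length moved the median of all genes to −0.06 and that of the 45 to −0.20, so that the distance between them was −0.14 in place of −0.13.

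**Figure D2:**
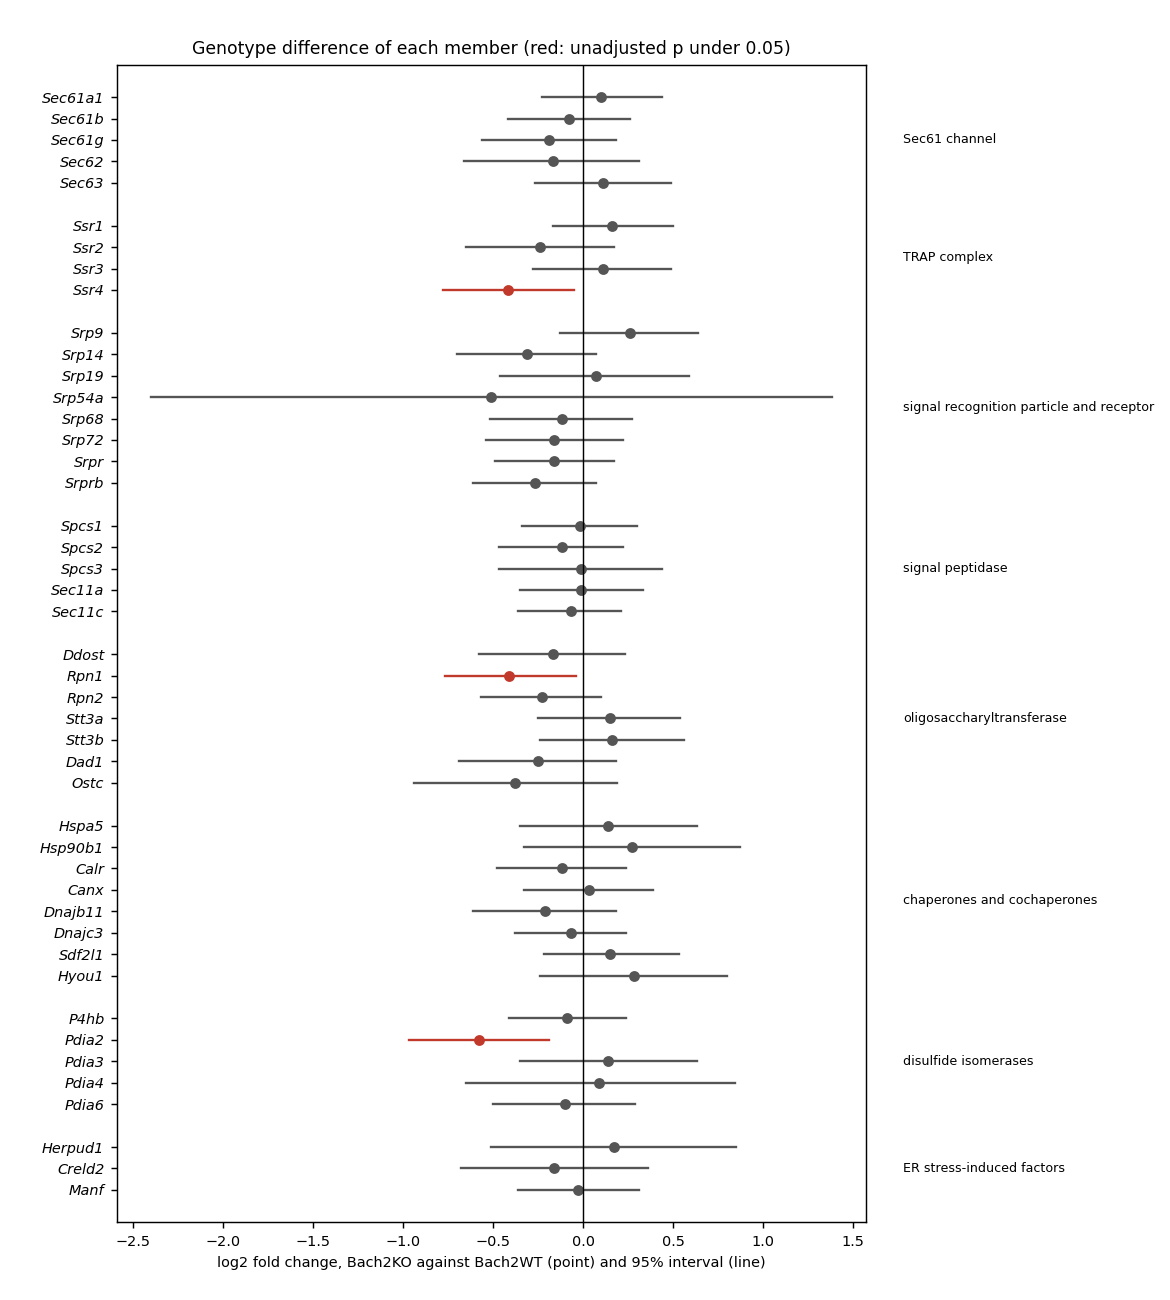
Log2 fold change of each of the 45 genes, Bach2KO against Bach2WT (n = 4 each), as a point with its 95% interval as a line, grouped by role, with red for an unadjusted p under 0.05. Pdia2, Ssr4 and Rpn1 are the genes whose interval lies wholly below 0, and Srp54a has by far the widest interval.

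Among the disulfide isomerases, the lowest value in Bach2KO was that of Pdia2 (ENSMUSG00000024184, chr17:26414973-26418061, mm39). Its level was 1290, 1581, 1438 and 1306 RPKM in Bach2KO mice 1 to 4 and 1580, 2176, 1893 and 2741 RPKM in Bach2WT mice 1 to 4. The genotypes overlapped slightly, as Bach2KO mouse 2 and Bach2WT mouse 1 were nearly equal. The mean was 1404 ± 135 RPKM in Bach2KO and 2098 ± 493 RPKM in Bach2WT (SD, n = 4), and the fitted level in Bach2KO was 66.9% of that in Bach2WT. The log2 fold change was −0.58 with an SE of 0.18, and edgeR gave an unadjusted p of 0.00679 and an adjusted p of 0.531. In DESeq2 the adjusted p was 0.136.

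Pdia2 stayed at an unadjusted p under 0.05 whichever mouse was left out, with log2 fold changes from −0.69 to −0.43. Because it was so abundant, it made up 64.6% to 71.2% of the summed RPKM of the 45 genes in Bach2KO and 70.9% to 80.2% in Bach2WT. The digestive enzyme list moved beside it. Of its 31 genes 22 had a log2 fold change below 0, and the median was −0.27. At an unadjusted p under 0.05, 10 were lower and 1 higher (Amy2a2, at 0.86), against 3.56% and 3.9% of all genes. Their sum was 686147 to 767028 CPM (the count scaled to library size, without gene length) in Bach2KO and 743076 to 990636 CPM in Bach2WT. These sums, like the RPKM of Pdia2, rest on TMM factors that multiply library size. The factors were 1.047 to 1.176 in Bach2KO and 1.103, 0.8585, 0.8349 and 0.8263 in Bach2WT mice 1 to 4. As a percentage of the counts on genes, the enzymes held 79.77% to 81.71% in Bach2KO and 81.29% to 82.69% in Bach2WT. The part of the enzymes in the Pdia2 value was not tested.

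The other disulfide isomerases showed smaller values of both signs. P4hb was at 190, 200, 212 and 241 RPKM in Bach2KO and 200, 256, 232 and 206 RPKM in Bach2WT, with a log2 fold change of −0.09 (interval −0.41 to 0.24). Pdia3, which works on glycoproteins together with the lectin chaperones, had 6.28, 6.53, 3.5 and 4.92 RPKM in Bach2KO and 6.21, 5.54, 3.76 and 3.8 RPKM in Bach2WT. In both genotypes the females stood above the males. Its log2 fold change between the genotypes was 0.14, that of Pdia4 was 0.09 and that of Pdia6 was −0.10.

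Pdia2 was also set against P4hb within each mouse, since such a ratio does not depend on how libraries are scaled. The ratio was 6.78, 7.91, 6.79 and 5.41 in Bach2KO mice 1 to 4 and 7.88, 8.49, 8.16 and 13.3 in Bach2WT mice 1 to 4. Bach2KO mouse 2 lay just above Bach2WT mouse 1, and the other Bach2KO mice lay below all Bach2WT mice. The means were 6.72 ± 1.02 and 9.45 ± 2.56 (SD, n = 4), and the log2 ratio differed by −0.47. The exact two-sided permutation test gave p = 0.0571, or 0.286 after adjustment over 5 ratios, where 0.0286 is the smallest p possible. Without Bach2WT mouse 4 the log2 difference was −0.29.

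**Figure D3:**
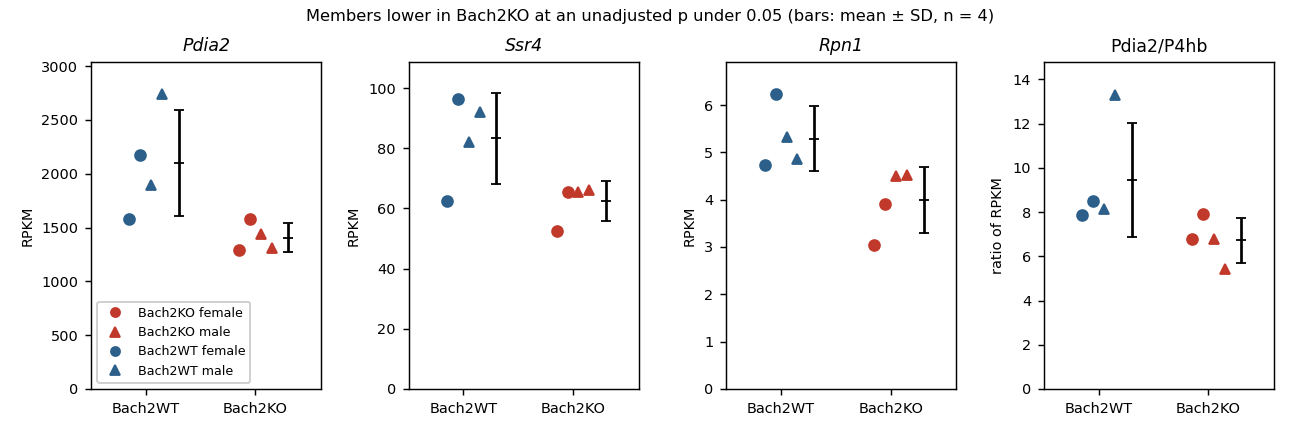
RPKM of Pdia2, Ssr4 and Rpn1 and the ratio of Pdia2 to P4hb in each mouse, with Bach2WT in blue and Bach2KO in red, circles for females, triangles for males, and bars for the mean ± SD (n = 4). Rpn1 has its 4 Bach2KO mice below all 4 Bach2WT mice, whereas the ratio in Bach2WT mouse 4 (13.3) lies far above the rest.

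The TRAP complex sits beside the Sec61 channel and helps certain signal peptides to open it. Its subunit Ssr4 (ENSMUSG00000002014, chrX:72830634-72834436, mm39) had 52.4, 65.6, 65.6 and 66.2 RPKM in Bach2KO and 62.4, 96.4, 82.2 and 92 RPKM in Bach2WT. Bach2WT mouse 1 lay among the Bach2KO mice, and the other Bach2WT mice lay above them. The log2 fold change was −0.42 with an SE of 0.17, at an unadjusted p of 0.028 and an adjusted p of 0.636 in edgeR. The unadjusted p was no longer under 0.05 without Bach2KO mouse 1 or without Bach2WT mouse 2, 3 or 4, and the log2 fold change ran from −0.53 to −0.34 when 1 mouse was left out. Ssr2 pointed the same way at −0.24 (10.1, 13.9, 18.1 and 14.5 RPKM in Bach2KO against 13.4, 18.8, 15.9 and 18.8 RPKM in Bach2WT). Ssr1 and Ssr3 had values of 0.16 and 0.11, so that 2 of the 4 subunits lay on each side of 0.

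In oligosaccharyltransferase, 5 of 7 subunits had a log2 fold change below 0 and the median was −0.23. Rpn1, which holds substrates near the catalytic subunit, is encoded at chr6:88061464-88082286 (mm39, ENSMUSG00000030062). It had 3.04, 3.9, 4.51 and 4.53 RPKM in Bach2KO and 4.74, 6.24, 5.32 and 4.87 RPKM in Bach2WT. Every Bach2KO mouse was below every Bach2WT mouse. This was the case for Rpn1 alone among the 45 genes, and for 1.92% of all genes tested, while 0 of the 45 had all Bach2KO mice above, against 2.57% of all genes. The log2 fold change was −0.41 with an SE of 0.17, at an unadjusted p of 0.0323 and an adjusted p of 0.643 in edgeR. The unadjusted p was no longer under 0.05 without Bach2KO mouse 1 or 2 or without Bach2WT mouse 2 or 3, and the log2 fold change ran from −0.49 to −0.29 when 1 mouse was left out. The females alone gave −0.68 and the males alone −0.17, and the interaction of sex and genotype in edgeR had an unadjusted p of 0.157.

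Its neighbour subunit Rpn2 was at 13.3, 13.1, 15.9 and 15.8 RPKM in Bach2KO and 15, 20.8, 16.2 and 16.1 RPKM in Bach2WT, with a log2 fold change of −0.23 (interval −0.57 to 0.1). Ddost, Dad1 and Ostc, which are further non-catalytic subunits, had values of −0.17, −0.25 and −0.38. Among the subunits followed here, the catalytic ones lay on the other side of 0 with all mice, though Stt3a was at −0.04 in females alone. This was not a split between catalytic and non-catalytic subunits. Of non-catalytic subunits outside the 45 genes, Magt1 and Tusc3 were at 0.34 and 0.31, and Tmem258 and Krtcap2 at −0.55 and −0.36. Stt3a, which acts while the chain is still being threaded through the channel, had 0.968, 1.39, 0.992 and 1.23 RPKM in Bach2KO and 1.14, 1.25, 0.834 and 0.924 RPKM in Bach2WT, a log2 fold change of 0.15. Stt3b, which glycosylates sites that were skipped, had 2.62, 2.18, 1.69 and 2.46 RPKM against 2.11, 2.36, 1.99 and 1.55 RPKM, a log2 fold change of 0.16. Their ratio was 0.524 ± 0.117 in Bach2KO and 0.521 ± 0.075 in Bach2WT (SD, n = 4, exact permutation p = 0.943).

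The Sec61 channel had 2 of 5 genes above 0 and a median of −0.08. Sec61g, a small subunit, was at 7.8, 7.7, 10.5 and 7.77 RPKM in Bach2KO and 7.58, 10.6, 9.36 and 10.9 RPKM in Bach2WT, with a log2 fold change of −0.19 (interval −0.56 to 0.18). Bach2KO mouse 3 stood apart from the other Bach2KO mice, which were nearly equal. Sec61b, the other small subunit, had 29.4, 30.7, 38.1 and 37.1 RPKM against 29.5, 37.6, 41.1 and 34.7 RPKM, a value of −0.08. Sec62, which helps short secretory proteins to enter after their synthesis, had 4.43, 3.52, 6.9 and 3.82 RPKM against 6.72, 5.13, 5.21 and 4 RPKM, a value of −0.17. The pore subunit Sec61a1 had a value of 0.10 and Sec63, which brings Hspa5 to the channel, one of 0.11.

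Of the 8 genes for the signal recognition particle and its receptor, 2 were above 0 and the median was −0.16. Srp14, which with Srp9 slows translation while the ribosome is docking, had 2.96, 3.62, 4.57 and 3.29 RPKM in Bach2KO and 4.37, 4.62, 4.13 and 4.76 RPKM in Bach2WT. Bach2KO mouse 3 lay within the Bach2WT range and the others below it, and the log2 fold change was −0.31 (interval −0.7 to 0.07). Srp9 had the opposite sign at 0.26. Srprb, the membrane-anchored receptor subunit, had 2.64, 2.65, 3.16 and 2.88 RPKM against 3.04, 4.2, 3.27 and 3.14 RPKM, a value of −0.27 (interval −0.61 to 0.07). The receptor subunit that binds the particle, Srpr, had −0.16, and the remaining genes Srp19, Srp54a, Srp68 and Srp72 had 0.07, −0.51, −0.12 and −0.16. Of these, Srp54a rests on the fewest counts.

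Signal peptidase was the most even group with all mice together. All 5 of its genes had log2 fold changes from −0.12 to −0.01. Spcs2, an accessory subunit, had 5.17, 6.07, 5.99 and 6.83 RPKM in Bach2KO and 5.46, 7.87, 6.84 and 6.07 RPKM in Bach2WT, a value of −0.12 (interval −0.47 to 0.22). The catalytic subunit Sec11c had 6.48, 5.53, 6.11 and 6.47 RPKM against 6.62, 6.43, 6.61 and 6.21 RPKM, a value of −0.07. Its interval of −0.36 to 0.21 was the narrowest of the genes described here. The alternative catalytic subunit Sec11a had 0.964, 1.2, 1.11 and 1.06 RPKM against 1.12, 1.15, 1.07 and 1.02 RPKM. The ratio of Sec11c to Sec11a was 5.73 ± 0.906 in Bach2KO and 5.94 ± 0.253 in Bach2WT (SD, n = 4, exact permutation p = 0.686). Spcs1 and Spcs3 had values of −0.02 and −0.01, and that of Spcs3 was 0.48 in females alone and −0.48 in males alone.

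The chaperones were the one role group with a median above 0, at 0.08, with 5 of 8 genes above 0, and this median became −0.07 after the length correction, where that of all genes was −0.06. Hyou1, which exchanges the nucleotide of Hspa5, had 5.82, 4.88, 2.69 and 4.29 RPKM in Bach2KO and 4.15, 4.75, 2.99 and 2.67 RPKM in Bach2WT, a log2 fold change of 0.28 (interval −0.24 to 0.8). Hsp90b1, the Hsp90 of the ER, had 6.29, 3.89, 2.52 and 2.27 RPKM against 3.34, 3.67, 2.7 and 2.71 RPKM. Bach2KO mouse 1 was the highest of all mice for both genes. The value for Hsp90b1 was 0.27 with all mice and −0.10 without that mouse.

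Hspa5 (BiP), the central Hsp70 of the ER, had 26.4, 23.6, 13.6 and 16.3 RPKM in Bach2KO and 19.3, 23.6, 15.7 and 13.8 RPKM in Bach2WT, a log2 fold change of 0.14 (interval −0.35 to 0.63). Dnajb11, its J-domain partner, had 8.96, 8.47, 8.43 and 10.9 RPKM against 10.5, 14.2, 9.74 and 8.25 RPKM, a value of −0.21. Both ranges overlapped between the genotypes. The ratio of Hsp90b1 to Hspa5 was 0.182 ± 0.0419 in Bach2KO and 0.174 ± 0.0167 in Bach2WT (SD, n = 4, exact permutation p = 0.857). Dnajc3, a further J-domain protein, and Sdf2l1, which forms a complex with Dnajb11, had values of −0.07 and 0.15.

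Calr and Canx are the soluble and the membrane-bound lectin chaperone of glycoproteins. Calr had 15.5, 19.7, 19.3 and 20.5 RPKM in Bach2KO and 19.2, 26, 17.5 and 18.8 RPKM in Bach2WT, a log2 fold change of −0.12 (interval −0.48 to 0.24). Canx had 2.58, 2.48, 2.14 and 2.08 RPKM against 1.84, 2.66, 2.46 and 2.14 RPKM, a value of 0.03 (interval −0.33 to 0.39). Their ratio was 8.21 ± 1.66 and 9.03 ± 1.43 (SD, n = 4, exact permutation p = 0.514). No difference was detected in the genes or in their balance, and differences within these intervals could be missed with 4 mice per genotype.

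Of the factors induced by ER stress, Herpud1, which takes part in the degradation of misfolded proteins, varied most between the Bach2KO mice (coefficient of variation 53.4%), whereas Creld2 did so between the Bach2WT mice (40.9%, and 33.8% for Herpud1). Herpud1 had 70.7, 28.5, 25.8 and 32.7 RPKM in Bach2KO and 50.5, 29.8, 37.3 and 22.8 RPKM in Bach2WT, with mouse 1 of either genotype the highest. The log2 fold change was 0.17 with all mice and −0.28 without Bach2KO mouse 1. Creld2, a secreted folding factor, had 25.6, 19.3, 23.2 and 19.2 RPKM against 16.6, 38.4, 17.8 and 24.8 RPKM, a value of −0.16 that became 0.14 without Bach2WT mouse 2. Manf, a protective factor kept in the ER by Hspa5, had a value of −0.03.

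The genes with a stress element did not stand apart from the rest by genotype. The 9 with an ERSE or ERSE-II match had a median log2 fold change of −0.07 (−0.21 to 0.27), and the 27 with neither had one of −0.12 (−0.58 to 0.26). None of the 5 ratios passed the exact permutation test, with adjusted p-values from 0.286 to 0.943.

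Among other genes of the same pathway, none passed an adjusted p-value of 0.05 in edgeR. As above, 45.3% of all genes lay below 0, and 3.56% were lower and 3.9% higher at an unadjusted p under 0.05. Of 14 UPR sensors and transcription factors, 7 lay above and 7 below 0, with a median of −0.01 and 0 at an unadjusted p under 0.05. Those with the smallest p were Ddit3, a stress-induced transcription factor, at a log2 fold change of 0.88 with an unadjusted p of 0.0598 in edgeR, and the sensor kinase Eif2ak3 at 0.34. Xbp1 was at −0.17 and Atf6 at 0.17. Of 20 genes of ER-associated degradation, 9 lay above and 11 below 0, and 1 in each direction had an unadjusted p under 0.05 (Edem2 at −0.36 and Derl2 at 0.42).

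In the lists for N-glycans, further folding factors and ER exit, most genes lay below 0. Assembly and trimming of N-glycans had 18 of 23 genes below 0 and a median of −0.18. Alg3, a mannosyltransferase of the lipid-linked precursor, had 1.77, 2.91, 2.7 and 2.93 RPKM in Bach2KO and 3.09, 4.99, 3.92 and 4.64 RPKM in Bach2WT, without overlap and with a log2 fold change of −0.69. Dpm3, which stabilises the enzyme that makes the mannose donor, was at −0.79, and these 2 were the ones at an unadjusted p under 0.05. Further ER folding factors had 18 of 24 below 0, a median of −0.14 and 5 genes at an unadjusted p under 0.05, all lower. Examples are Txndc11, a thioredoxin-domain protein, at −0.58 and Sil1, a nucleotide exchange factor of Hspa5, at −0.49. Exit from the ER and retrieval to it had 18 of 23 below 0, a median of −0.25 and 4 genes at that level, all lower, such as the cargo receptor Tmed10 at −0.46 and the coat subunit Sec13 at −0.37. Other targeting and translocation factors were balanced, with 14 above and 12 below 0 and a median of 0.02, which was −0.12 after the length correction. In that list Tmem258, a small subunit of oligosaccharyltransferase, was at −0.55 and Emc10, a subunit of the ER membrane complex, at −0.38, both at an unadjusted p under 0.05.

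The mice differed along another line, that of sex, and this comparison was added after the values had been seen. With genotype kept in the model, 0 of the 45 genes passed an adjusted p-value of 0.05 between females and males in edgeR, where 0.0156% of all genes passed as higher in females and 0.0156% as lower. At an unadjusted p under 0.05, 5 genes were higher in females and 0 lower, against 3.36% and 1.93% of all genes (5.29% in either direction). They were the chaperones Hspa5, Hsp90b1 and Hyou1 and the disulfide isomerases Pdia3 and Pdia4. With the same terms DESeq2 passed 1 of the 45, Pdia4, and 19 of all genes (0.1%). With no filter on low counts, edgeR passed 3 of the 45 and 152 of all genes (0.709%). The median over the 45 was 0.03 and that over all genes 0.03. Above 0 were 25 of the 45 and all 8 chaperone genes, against 6791 of all 12820 genes tested.

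Pdia4, an isomerase with several thioredoxin domains (ENSMUSG00000025823, chr6:47773075-47790364, mm39), had 1.98 and 2.61 RPKM in the Bach2KO females and 1.93 and 2.25 RPKM in the Bach2WT females. The males had 0.81 and 1.34 RPKM in Bach2KO and 0.952 and 1.18 RPKM in Bach2WT. All 4 females lay above all 4 males. The log2 fold change was 1.03 with an SE of 0.21 (interval 0.57 to 1.49), and edgeR gave an unadjusted p of 0.000352 and an adjusted p of 0.430. The mean was 2.19 ± 0.313 RPKM in females and 1.07 ± 0.237 RPKM in males (SD, n = 4).

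The 4 other genes had log2 fold changes close to each other. Hspa5 was at 23.2 ± 2.92 RPKM in females and 14.8 ± 1.37 RPKM in males (SD, n = 4), a log2 fold change of 0.64 (interval 0.32 to 0.97). Hsp90b1 was at 4.30 ± 1.34 and 2.55 ± 0.205 RPKM, a value of 0.73 (interval 0.3 to 1.17). Pdia3 was at 6.14 ± 0.42 and 4 ± 0.628 RPKM, a value of 0.62 (interval 0.28 to 0.95). For these 3 genes the sexes did not overlap. Hyou1, at 0.63 (interval 0.26 to 1.01), had 1 male, Bach2KO mouse 4, above the lowest female. Adjusted p-values in edgeR were 0.859 for Hspa5 and 0.890 for the other 3.

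**Figure D4:**
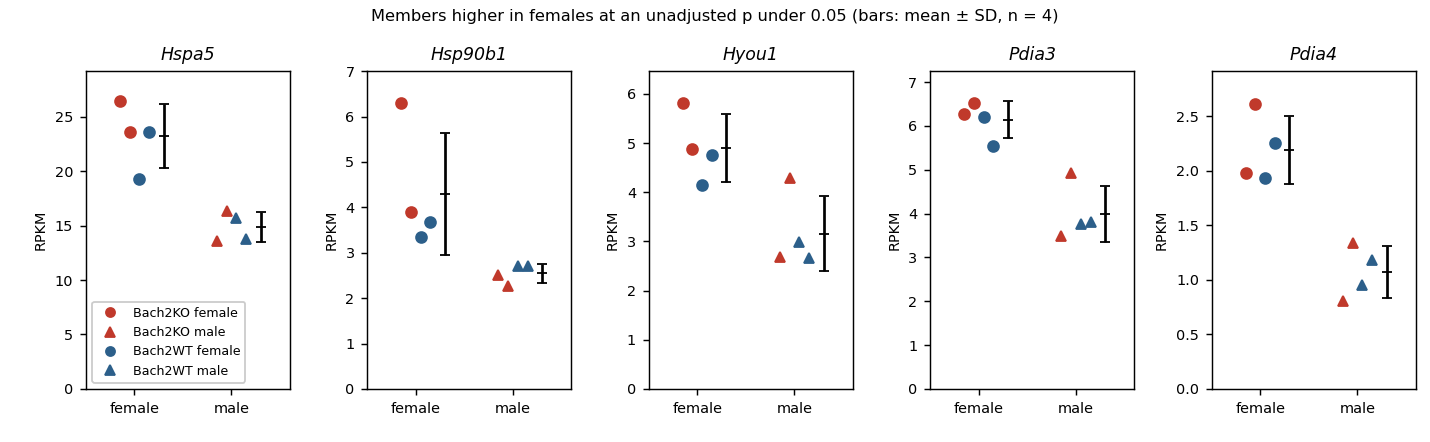
RPKM of Hspa5, Hsp90b1, Hyou1, Pdia3 and Pdia4 in the 4 females (circles) and the 4 males (triangles), with Bach2KO in red, Bach2WT in blue, and bars for the mean ± SD (n = 4). Females lie above males without overlap for all of these but Hyou1.

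Females and males did not overlap for 5 of the 45 genes, all higher in females, against 1.97% of all genes higher and 0.959% lower. The fifth was Sec63, with a log2 fold change of 0.32 (interval −0.02 to 0.66). The genes with a smaller difference included Calr (0.07), Canx (0.12), Dnajb11 (0.15), Sdf2l1 (0.17), Dnajc3 (0.17) and Pdia6 (0.01), and P4hb and Pdia2 had values of −0.08 and −0.12. Among the 9 genes with a stress element match, 9 were above 0, with a median of 0.17 (0.01 to 0.73). Of all 12820 genes tested, 6791 were above 0. The genes with a match include Hspa5 and Hsp90b1, already named as higher in females, and a link of the elements to sex was not tested. Among the 27 with neither element, 13 were above 0 and the median was −0.01 (−0.30 to 1.07). Pdia4 is in the latter set.

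The 5 genes kept an unadjusted p under 0.05 whichever mouse was left out. Within 1 genotype, with 2 mice per sex, not all of them did so in edgeR. Hyou1 lost it in the Bach2KO mice alone, and Hspa5 and Hsp90b1 lost it in the Bach2WT mice alone. In the Bach2KO mice alone the log2 fold change was 0.72 for Hspa5, 1.06 for Hsp90b1 and 0.59 for Hyou1, and in the Bach2WT mice alone it was 0.51, 0.35 and 0.62. For Hsp90b1 the interaction of sex and genotype had an unadjusted p of 0.0688 in edgeR. Plasma cells are rich in the same chaperones, and their markers moved with sex. Of 10 plasma cell markers 6 were tested and 5 of these were higher in females at an unadjusted p under 0.05, and their sum was 151, 7.49, 8.32 and 19.6 CPM in Bach2KO mice 1 to 4 and 71.8, 26, 12.5 and 5.14 CPM in Bach2WT mice 1 to 4. Mzb1, a plasma cell marker with too few counts to be tested, was at 0 in 6 of 8 libraries. It was above 0 in mouse 1 of either genotype, the 2 females with the highest sums. Other markers of the list did not follow it. Sdc1 had a log2 fold change of −0.04 between the sexes. Tnfrsf17, also untested, was highest in a male (Bach2KO mouse 3, 0.227 RPKM). Prdm1, untested too, was above 0 in all Bach2KO mice and at 0 in Bach2WT mouse 1. Bach2KO mouse 1, with the highest sum, had the highest Hspa5, Hsp90b1 and Hyou1 levels of all mice. Bach2KO mouse 2, a female with a sum within the range of the males, had the highest Pdia3 and Pdia4 levels. T cell markers moved with sex as well. Of 10 markers 7 were tested, all 7 were above 0 in females, 2 of them (Cd3d and Trac) at an unadjusted p under 0.05 and without overlap. Both genes lay near the floor, at 0 in the Bach2WT males and at most 0.147 (Cd3d) and 0.568 RPKM (Trac) in any library. The sum over the T cell markers was 0.854 to 3.54 CPM in females and 0.292 to 1.45 CPM in males. Sums for B cells (0.169 to 4.88 CPM in females, 0.0264 to 0.751 CPM in males) and adipocytes (3.36 to 20 CPM in females, 1.22 to 4.15 CPM in males) were mostly higher in females too. Other marker lists went both ways. The median log2 fold change of females against males was −0.36 for islet cells and −0.17 for duct cells. It was −0.10 for digestive enzymes, −0.08 for endothelial cells, 0.19 for macrophages and 0.18 for stellate cells and fibroblasts. The part of these cell types in the result was not tested.

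**Figure D5:**
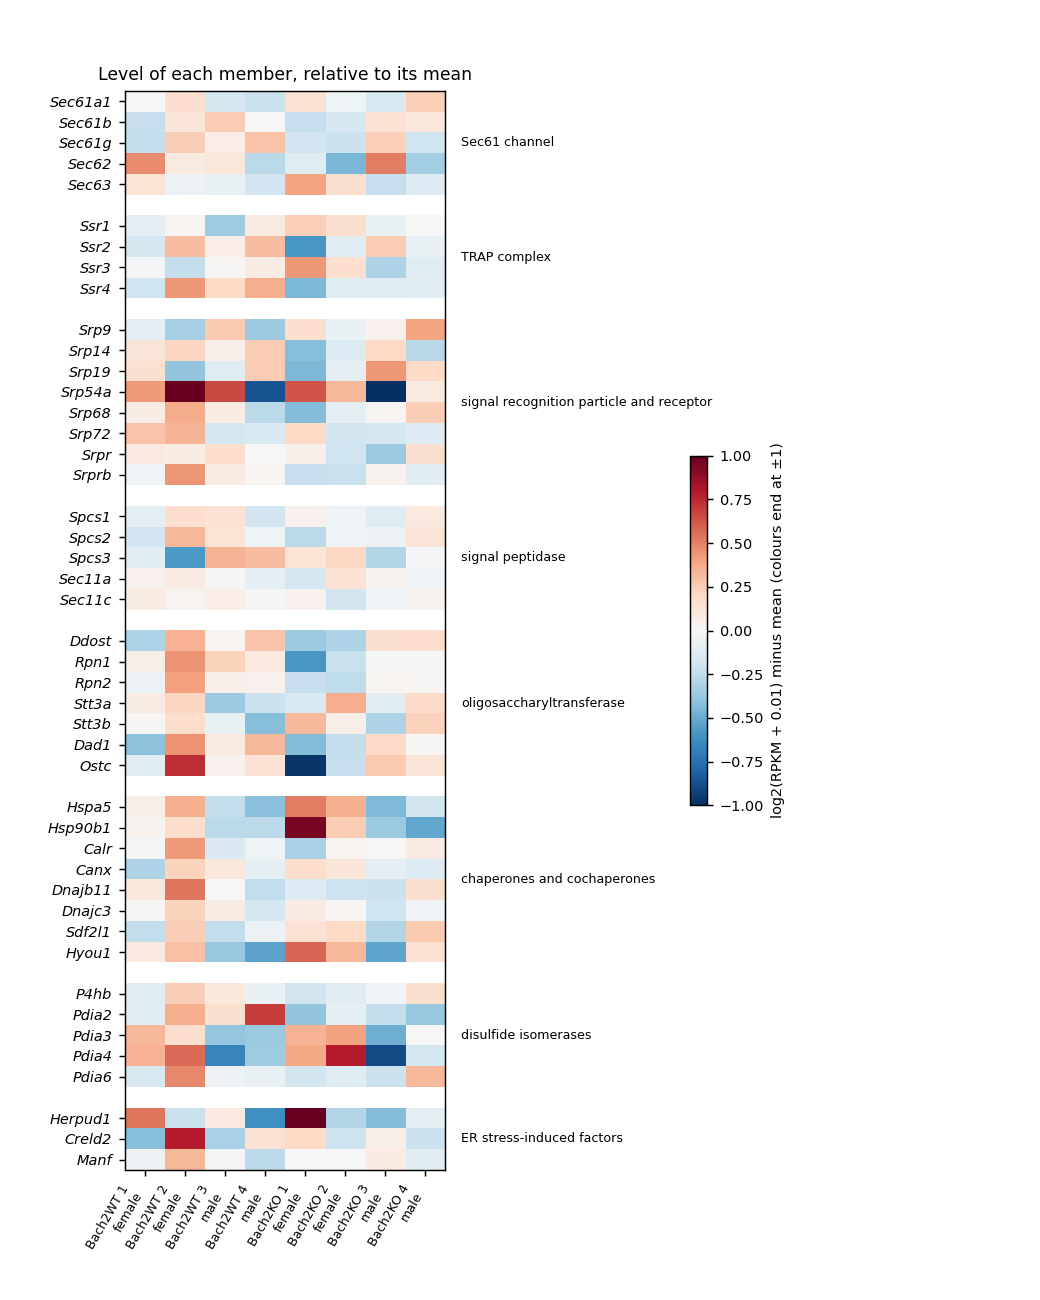
Level of each of the 45 genes in each library as log2(RPKM + 0.01) minus the mean of the gene over the 8 libraries, from blue (lower) to red (higher), with colours ending at 1 log2 unit either way. Bach2WT mouse 2 is red in most rows, and Hspa5, Hyou1, Pdia3 and Pdia4 are red in all 4 females.

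Whether the genotypes differed in another way in females than in males was tested with an interaction term, with 2 mice for each sex and genotype. None of the 45 genes passed an adjusted p-value of 0.05 in edgeR or in DESeq2, and in edgeR none of all genes did (0.0%). At an unadjusted p under 0.05 there were 3, against 6.14% of all genes (3.27% where the genotype value was larger in males and 2.87% where it was larger in females). They were Spcs3, an accessory subunit of signal peptidase, Ostc and Ssr3. The log2 fold change of Bach2KO against Bach2WT was 0.48 in females and −0.48 in males for Spcs3, and the interaction had an unadjusted p of 0.0135 and an adjusted p of 0.793 in edgeR. It was −0.95 in females and 0.10 in males for Ostc, with an unadjusted p of 0.0402 and an adjusted p of 0.807. For Ssr3 it was 0.41 and −0.26, with an unadjusted p of 0.0472 and an adjusted p of 0.807.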

How the data were processed

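Total RNA of homogenized pancreas was made into poly(A) libraries, of which paired-end reads were taken. The submitters' processing notes name fastp, HISAT2 2.2.1, featureCounts 2.0.6 and the build mm39. The annotation release and the strand setting are not given in the sources used here. The authors deposited 1 table with raw counts per gene and library, the normalized signal (count divided by a size factor per library) and FPKM. Deposited columns with log2 fold changes and p-values (raw and adjusted) hold the authors' own comparison of the genotypes and were left out. The signal and FPKM columns were not used either.

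Counts were compared with edgeR 4.0.16 in R 4.3.3 (quasi-likelihood fit, TMM, filterByExpr on genotype, no covariate, Benjamini-Hochberg adjustment over all 12820 genes tested, threshold 0.05). The SE is the log2 fold change divided by the square root of F, and intervals are 95%. RPKM used the deposited gene lengths. Totals of 72299745 to 172029360 counts and 4 mice per genotype set the precision, with a biological coefficient of variation of 0.438. Ratios were compared by exact two-sided permutation tests (scipy 1.17.1). Alternatives were DESeq2 1.42.0, RLE factors, other filters, library sizes without enzymes, sex, library total or replicate number as terms, a correction for gene length, counts divided by 2, each sex alone, and leaving out each mouse. The fit across all genes was tested on simulated data. Every pair of libraries within a genotype differed by more than sampling noise.

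The genes and lists were chosen with earlier results of these data known, and the comparison by sex was added after seeing the values. Values per mouse were given for the 2 genes with the smallest p in each role group, genes without overlap, the 5 highest genes, and the genes of the 5 ratios. For each pathway list the 2 genes with the smallest p were named, and Xbp1 and Atf6 besides, after their values were seen, as were the genes of the comparison by sex. Of the genes, 16 overlap another gene of the table, among them Hsp90b1, Pdia3, Herpud1, Rpn2 and Sec62, and reads of such pairs may be shared. The symbols Hm13, Srpra and Camlg of the pathway lists were not found, and the gene of Srpra was followed under the symbol Srpr. Promoters (GRCm38.p6) were matched by symbol, and coordinates of genes are those of the files (mm39).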

Additional observations from a re-analysis of the deposited data

Results flagged for a closer look

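In each genotype the highest or lowest of the 4 mice was checked for a gap to its nearest neighbour, as a share of the group's range, above Dixon's critical value for 4 samples at 95%, over 100 groups (45 genes and 5 ratios in both genotypes). There were 7 such groups, and chance alone gives about 1 in 20. In Bach2KO mice, mouse 1 stood low for Ssr4 (0.955 of the range) and high for Srp72 (0.888) and Herpud1 (0.846). Mouse 3 of that genotype stood high for Sec61g (0.962) and mouse 4 for Pdia6 (0.856). In Bach2WT mice, mouse 2 stood high for Pdia6 (0.859) and mouse 4 for the ratio of Pdia2 to P4hb (0.888).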

How the results depend on the processing

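Of the 12820 genes tested, 1 passed an adjusted p-value of 0.05 between the genotypes in edgeR. This count was 80 of 14700 in DESeq2, 73 of 21434 with no filter on low counts and 4 of 13279 in males only. It was 0 with at least 10 counts in every mouse, with counts divided by 2, with library total or sex as a term, and without any 1 mouse. None of the 45 genes was among those passing under any of these settings. Replicate numbers did not pair the samples (correlations of deviations of 0.21, −0.034, −0.041 and −0.054, with 1 of 4 Bach2KO mice closest to its own number). With the number as a block, 0 of all genes passed. The median log2 fold change of the 45 was −0.18 in females only, 0.01 in males only, −0.20 with the length correction, and −0.11 to −0.01 when 1 mouse was left out. The share of higher genes among all at an unadjusted p under 0.05 was 52.2%, and 30.3% after the length correction, 67.0% in males only. The count of the 45 at that p was 3, was 1 in males only, and was 1 to 5 when 1 mouse was left out. It was 1, Pdia2, without Bach2KO mouse 1 or Bach2WT mouse 2, and 5 without Bach2KO mouse 3. Between the sexes, 1 of the 45 passed the adjusted threshold in DESeq2 and 3 with no filter (Hspa5, Hsp90b1 and Pdia4), while over all genes the count was 4 in edgeR, 19 in DESeq2 and 152 with no filter, and 5 to 12 had an unadjusted p under 0.05 when 1 mouse was left out, 12 without Bach2WT mouse 2. Of the single values under the alternatives, 479 kept within the spread of the mice and 21 moved. Of the 25 genes with values per mouse, 11 changed sign in at least 1 of 20 alternatives, Canx and Sec11a in 6 each, and none of the 25 had passed the adjusted threshold. After the length correction the median of every role group and pathway list lay below 0. The causes were not tested. Leaving a sex or a mouse out also leaves fewer samples.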
